A study of Mus musculus with 12 samples.

Results

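The insulin-like growth factor (IGF) genes described here are 1 ligand gene, Igf1, the receptor genes Igf1r and Insr, and 5 binding-protein genes, Igfbp2, Igfbp3, Igfbp4, Igfbp5 and Igfbp7. They were chosen by name, as 8 of the 23284 gene symbols in a table of RNA-seq read counts, and all 8 passed the filter on low counts. RNA came from single whole mouse embryos collected at 9.0 days after fertilization, with about 9 to 10 somites, on a mixed C57BL/6 x 129Sv background. The 4 embryos of the first group were wild type. The 8 embryos of the second group are labelled Tgif1;Tgif2 null, and the series text calls them conditional double mutants without either allele pair. Tgif1 and Tgif2 encode related homeodomain repressors that restrain TGF-beta and Nodal signalling. The sources used here do not give the Cre driver, the deleted exons, litters or batches.

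IGF1, IGF2 and insulin are related ligands that act through the receptor tyrosine kinases IGF1R and INSR, whose signal runs through IRS adaptors, PI3-kinase and AKT to cell growth and survival. Secreted IGF-binding proteins hold the IGFs in the extracellular space and either limit or prolong their action, and proteases cut the binding proteins to release the ligand. In the mid-gestation mouse embryo IGF2, made from a paternally expressed imprinted gene, is the main ligand, and the IGF2 receptor clears it. IGFBP7 is a more distant relative that binds IGFs weakly.

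Levels are given as CPM, the count scaled to a common library total. Tgif1 averaged 60.9 ± 2.52 CPM (SD, n = 4) in the wild-type group and only 6.20 ± 0.528 CPM (SD, n = 8) in the second. Tgif2 was not lower there, at 87.4 ± 1.17 CPM and 97.9 ± 11.8 CPM. That count is uncertain, because 2 other genes have near-identical stretches. Of its 3832 exon bases, 2171 are shared with a gene on the opposite strand, and the strand setting is not given. The loss of Tgif2 is therefore known from the labels alone, and these embryos are called mutant-labelled. Libraries held 17296017 to 20080786 counts in wild type and 16802367 to 21346245 in the mutant-labelled group. Several tissue markers moved with the labels. Of 12 endothelial markers 7 rose and 0 fell, and their summed level did not overlap between groups (481.7 to 570.2 CPM in wild type, 600.6 to 845.3 CPM in mutant-labelled embryos). Of 10 heart markers 8 rose and 0 fell (1613 to 1976 CPM against 2594 to 4345 CPM), and of 7 presomitic mesoderm markers 0 rose and 5 fell (152.7 to 233.6 CPM against 19.8 to 129.2 CPM). None of these 3 lists had a marker at 0 in every embryo. Of 6 surface ectoderm markers 2 rose and 1 fell, and of 5 neural crest markers 1 rose and 1 fell. Of 6 sclerotome and dermomyotome markers 2 fell, and of 6 floor plate and notochord markers 1 fell. No neural tube, yolk sac or primitive red cell marker rose or fell, and 1 of 2 tested decidua and trophoblast markers rose. Over all genes tested 51.5% rose or fell at an adjusted p under 0.05, and 17.5% were higher without overlap. The part of heart and presomitic tissue in the results below was not tested.

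A pair of mutant-labelled libraries stood apart. Embryo 2 had the lowest summed level of 8 primitive red cell markers, 36.9 CPM. Embryos 3, 4, 5 and 6 were also low, at 329.3, 238.0, 311.3 and 427.4 CPM, below the wild-type range of 786.7 to 1310.0 CPM, and embryos 1, 7 and 8 had 1114 to 1677 CPM. Embryo 6 carried RNA of decidua and trophoblast markers: the placental prolactin-family gene Prl8a2 stood at 35.9 CPM there and at no more than 0.41 CPM in any other embryo. Prl3d1, a marker of trophoblast giant cells, stood at 7.23 CPM in embryo 6 and at no more than 0.77 CPM elsewhere. The sum of the 9 markers on that list, of which Psg23 was at 0 in every embryo, was 129.6 CPM in embryo 6. The remaining mutant-labelled embryos had 38.6 to 54.9 CPM and wild type had 29.8 to 42.8 CPM. In embryo 6 Plac1 made up 34.1 CPM of the sum and Cryab 51.0 CPM, but Cryab was at 25.9 CPM or more in every embryo. Bmp8a, at 0.12 CPM, was not raised in embryo 6, and Prl2c2, Ctsj and Tpbpa had only 12, 7 and 2 counts there. Wild-type embryo 1 had the lowest summed level of 10 yolk sac markers, 638.4 CPM, while the remaining wild-type embryos had 1702 to 2357 CPM. The mutant-labelled embryos ran from 719.3 to 3498 CPM on that list. Calls of the 8 genes that change without mutant-labelled embryo 6, or without mutant-labelled embryos 2 and 6 and wild-type embryo 1, are given with both values.

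In the mutant-labelled embryos 5 of the 8 genes rose and 0 fell at an adjusted p under 0.05 (edgeR quasi-likelihood F test). Over the 14412 genes tested 51.5% passed, 26.6% higher and 24.9% lower, so a call by itself is common in these data. Without mutant-labelled embryos 2 and 6 and wild-type embryo 1, 3 rose (Insr, Igfbp2 and Igfbp3) and 1, Igf1r, fell. Of all calls in that setting 52.5% were higher. With an endothelial score (the mean log2 CPM of the 12 markers in each embryo) as a covariate 3092 genes passed, against 7423 without it. Of these calls 61.8% were higher, against 51.7% without it, and of the 8 genes only Insr, Igfbp2 and Igfbp3 passed. The score does not overlap between groups, so its part and that of the labels cannot be cleanly separated. A call lost with this covariate does not show that endothelial content made the change. Insr was the most changed of the 8, at about double its wild-type level, and Igfbp2 and Igfbp3 rose by about the same smaller amount. Igfbp4 and Igf1 rose slightly, and Igf1r, Igfbp5 and Igfbp7 did not pass. The groups did not overlap for 4 genes, Insr, Igfbp2, Igfbp3 and Igfbp4, all higher in the mutant-labelled embryos. Over all genes tested 17.5% were without overlap in that direction. The median log2 fold change was 0.37 over the 8 genes and 0.01 over all genes tested. In whole embryos fewer cells of a type and less RNA per cell cannot be told apart.

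**Figure D1:**
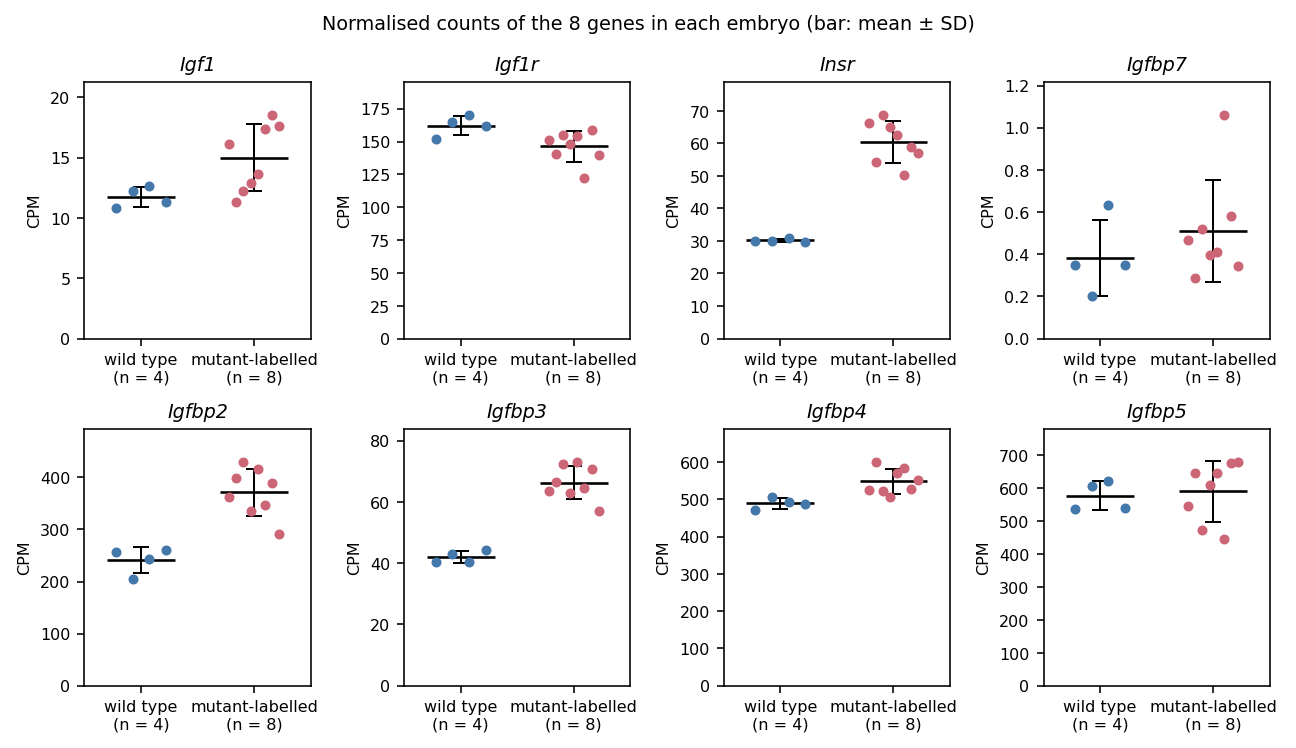
Normalised counts (CPM, y axis, from 0) of the 8 genes in each embryo, in 4 wild-type and 8 mutant-labelled embryos. Each point is an embryo and the black lines give the mean ± SD. The groups are apart for Insr, Igfbp2 and Igfbp3, touch for Igfbp4 (505.8 against 506.2 CPM) and overlap for Igf1, Igf1r, Igfbp5 and Igfbp7.

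Insr encodes the insulin receptor, which also binds IGF2 in its fetal isoform. It stood at 29.9, 29.9, 31.0 and 29.8 CPM in wild-type embryos 1 to 4, and in the mutant-labelled embryos the lowest value was 50.1 CPM, the median 60.7 CPM and the highest 68.6 CPM. The wild-type embryos lay within about 1 CPM of each other, and every mutant-labelled embryo lay far above them. The means were 30.1 ± 0.564 CPM (SD, n = 4) and 60.3 ± 6.39 CPM (SD, n = 8). The log2 fold change was 1.001 (SE 0.08, 95% interval 0.83 to 1.17, adjusted p = 1.26e-07). Among all genes tested, 5.04% both passed the test and were higher at 2-fold or more. The mutant-labelled embryos with the lowest Insr were embryo 6, at 50.1 CPM, and embryo 2, at 54.3 CPM, the libraries that stood apart on tissue markers. Without these and wild-type embryo 1 the log2 fold change was 1.06.

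Igf1r, the receptor through which IGF1 and IGF2 drive growth, did not follow Insr. It stood at 152.1, 164.7, 170.0 and 161.8 CPM in wild-type embryos 1 to 4 and at 122.5 CPM (lowest), 150.0 CPM (median) and 158.6 CPM (highest) in the mutant-labelled embryos. All 8 mutant-labelled embryos lay below the wild-type mean of 162.1 ± 7.49 CPM (SD, n = 4), and 3 of them lay above the lowest wild-type embryo. The mutant-labelled mean was 146.3 ± 11.8 CPM (SD, n = 8). The log2 fold change of -0.15 (SE 0.06, 95% interval -0.28 to -0.02) had an adjusted p of 0.0523, just over the threshold of 0.05. Embryo 6 was the lowest, and without it the log2 fold change was -0.12 with an adjusted p of 0.0482. Other settings also put this gene on either side of the threshold. With the endothelial score as a covariate the log2 fold change was -0.02 (adjusted p = 0.909).

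The balance of the pair was read within each library as the log2 ratio of Igf1r to Insr counts, which needs no scaling between libraries. It was 2.35, 2.46, 2.46 and 2.44 in wild-type embryos 1 to 4 and 1.18 (lowest), 1.29 (median) and 1.43 (highest) in the mutant-labelled embryos. No mutant-labelled embryo came near the wild-type range. The mean fell from 2.43 ± 0.053 (SD, n = 4) to 1.28 ± 0.091 (SD, n = 8), a difference of -1.15 (exact two-sided permutation test over 495 arrangements, p = 0.00404, the smallest this design can give, 0.00808 after Benjamini-Hochberg over 2 ratios). The ratio uses the same counts as the tests of each gene, where Insr did not overlap between groups and Igf1r changed little. This p is therefore not separate support. In counts, wild-type embryos had 5.38 Igf1r reads for each Insr read and mutant-labelled embryos 2.43. These are reads and not molecules, since the transcripts differ in length.

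**Figure D2:**
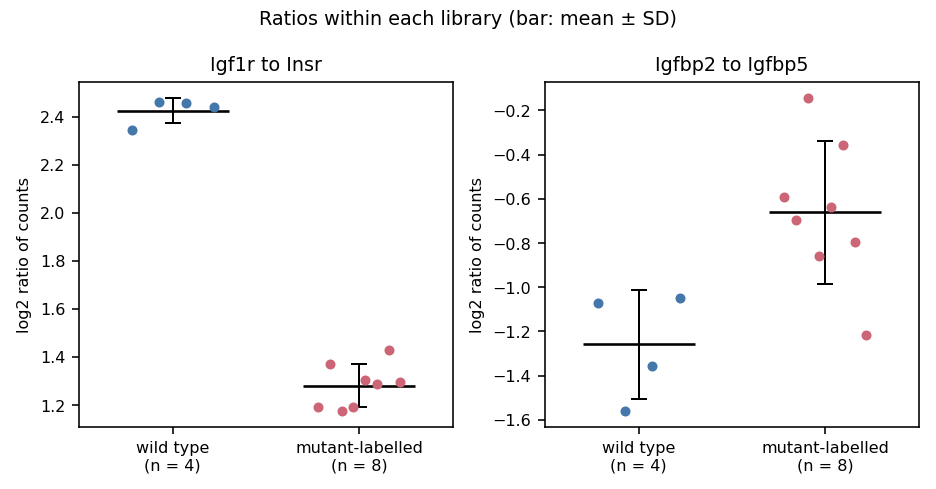
Log2 ratio of counts within each library (y axis) for Igf1r to Insr and for Igfbp2 to Igfbp5 in 4 wild-type and 8 mutant-labelled embryos. Points are embryos and lines the mean ± SD: the first ratio is apart between groups (2.35 to 2.46 against 1.18 to 1.43), and the second overlaps (-1.56 to -1.05 against -1.22 to -0.14).

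Igf1, the ligand of IGF1R that works mostly later in development, was a low gene here. It stood at 10.8, 12.2, 12.6 and 11.4 CPM in wild-type embryos 1 to 4 and at 11.3 CPM (lowest), 14.9 CPM (median) and 18.5 CPM (highest) in the mutant-labelled embryos. Mutant-labelled embryos 1, 6, 7 and 8 lay above every wild-type embryo, while embryos 2 and 3 lay within the wild-type range and embryos 4 and 5 just above it. The log2 fold change was 0.35 (SE 0.13, 95% interval 0.06 to 0.63, adjusted p = 0.0392), from 11.7 ± 0.803 CPM (SD, n = 4) to 14.97 ± 2.78 CPM (SD, n = 8). The call was lost on leaving out any wild-type embryo or mutant-labelled embryo 1, 6, 7 or 8, with adjusted p from 0.0553 to 0.109. Without mutant-labelled embryo 6 the log2 fold change was 0.31 (adjusted p = 0.0599). Without mutant-labelled embryos 2 and 6 and wild-type embryo 1 it was 0.33 (adjusted p = 0.0623). With the endothelial score as a covariate Igf1 was at -0.03 (adjusted p = 0.940), and with the red cell score at 0.54 (adjusted p = 0.00046).

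Igfbp2, a binding protein abundant in embryonic epithelia and brain, rose in every mutant-labelled embryo. It stood at 255.8, 205.6, 242.9 and 261.4 CPM in wild-type embryos 1 to 4 and at 292 CPM (lowest), 375 CPM (median) and 429 CPM (highest) in the mutant-labelled embryos. The groups did not overlap, and the lowest mutant-labelled embryo, number 8, was nearest to wild type. The means were 241.4 ± 25.1 CPM (SD, n = 4) and 371.2 ± 45.6 CPM (SD, n = 8), a log2 fold change of 0.62 (SE 0.10, 95% interval 0.42 to 0.83, adjusted p = 9.76e-05).

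Igfbp5, which binds to matrix and bone mineral, lies beside Igfbp2 on chromosome 1 and did not pass the test. It stood at 537.6, 606.4, 622.4 and 540.5 CPM in wild-type embryos 1 to 4 and at 444.1 CPM (lowest), 628 CPM (median) and 678.5 CPM (highest) in the mutant-labelled embryos. The mutant-labelled embryos spread on both sides of wild type, with embryos 3 and 6 below all 4 and embryos 2, 5, 7 and 8 above all 4. The means were 576.7 ± 44.0 CPM (SD, n = 4) and 589.9 ± 91.5 CPM (SD, n = 8). The log2 fold change was 0.03 (SE 0.11, adjusted p = 0.826), and its 95% interval ran from -0.21 to 0.27. Without embryo 6 it was 0.08 (adjusted p = 0.463), and its sign turned under other settings.

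The Igfbp2 to Igfbp5 ratio within a library averaged -1.26 ± 0.245 on the log2 scale (SD, n = 4) in wild type and -0.66 ± 0.324 (SD, n = 8) in the mutant-labelled embryos. The difference of 0.60 had an exact permutation p of 0.0121 (two-sided, also 0.0121 after adjustment). This ratio too uses the counts already tested for each gene. The groups overlapped through embryo 8, at -1.22, whereas embryo 3 was highest at -0.14. On a linear scale 0.42 Igfbp2 reads per Igfbp5 read became 0.65.

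The promoters of this neighbouring pair, and of Igfbp3, which rose as Igfbp2 did, are shown because the 3 genes belong to 1 family and did not move alike. Each is the 250 bases before a RefSeq transcription start in GRCm38.p6, on the gene's strand, 5′ to 3′. Igfbp2 (first of its 2 listed starts) is chr1:72824230-72824479 on the plus strand, Igfbp5 is chr1:72874866-72875115 on the minus strand and Igfbp3 is chr11:7213924-7214173 on the minus strand. Capitals mark the searched motifs.

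Igfbp2: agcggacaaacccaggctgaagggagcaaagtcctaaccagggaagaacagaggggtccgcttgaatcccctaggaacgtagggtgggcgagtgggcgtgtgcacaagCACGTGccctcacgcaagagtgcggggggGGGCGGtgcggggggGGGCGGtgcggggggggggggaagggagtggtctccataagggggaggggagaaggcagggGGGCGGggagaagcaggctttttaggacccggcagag

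Igfbp5: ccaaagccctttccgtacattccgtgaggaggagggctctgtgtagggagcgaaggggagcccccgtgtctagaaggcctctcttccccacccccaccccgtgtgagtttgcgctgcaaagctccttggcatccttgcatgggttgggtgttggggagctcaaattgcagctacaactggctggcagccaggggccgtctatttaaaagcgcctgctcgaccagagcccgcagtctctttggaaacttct

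Igfbp3: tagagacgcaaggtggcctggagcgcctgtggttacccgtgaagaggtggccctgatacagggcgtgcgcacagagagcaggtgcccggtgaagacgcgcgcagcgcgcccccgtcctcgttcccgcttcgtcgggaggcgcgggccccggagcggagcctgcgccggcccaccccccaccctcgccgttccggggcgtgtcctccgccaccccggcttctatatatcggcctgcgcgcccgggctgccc

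Searched on both strands were the TGIF core TGTCA and its longer form CTGTCA, which contains it, the hypoxia-response core ACGTG, the GC box GGGCGG and the TATA box TATAAA. Over 32851 promoters of the same length in the table, 39.95% held TGTCA, 15.86% CTGTCA, 16.57% ACGTG, 32.74% GGGCGG and 12.37% TATAAA. The Igfbp2 promoter held GGGCGG at -113, -98 and -37, and a palindrome that reads as ACGTG on both strands, at -142 and -141, counted from the start site. The Igfbp5 and Igfbp3 promoters held none of the 5 motifs in exactly these letters. The 3 differed in base composition, with 67.2% G and C in Igfbp2, 58.8% in Igfbp5 and 73.2% in Igfbp3. TGTCA and CTGTCA were absent from all 8 windows found for Igf1, Igf1r, Igfbp2, Igfbp3, Igfbp4, Igfbp5 and Igfbp7, which says only that these letters are not in these windows. The promoter of Igfbp4 held TATAAA at -28 and that of Igf1r held GGGCGG at -43 and -26. That of Igfbp7, which did not pass, held ACGTG at -175 and 4 matches of GGGCGG, and the window before the second Igfbp2 start held none of the 5 motifs.

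Igfbp3, the main carrier of IGFs in adult serum, had the second largest fold change among the genes of the group that passed. It stood at 40.5, 42.8, 40.4 and 44.2 CPM in wild-type embryos 1 to 4 and at 57.0 CPM (lowest), 65.6 CPM (median) and 72.9 CPM (highest) in the mutant-labelled embryos. The groups were well apart, and embryo 8 was again the lowest of the mutant-labelled embryos. The means were 42.0 ± 1.84 CPM (SD, n = 4) and 66.3 ± 5.44 CPM (SD, n = 8), a log2 fold change of 0.66 (SE 0.07, 95% interval 0.52 to 0.80, adjusted p = 1.34e-06). With the endothelial score as a covariate the fold changes of Insr, Igfbp2 and Igfbp3 were 1.23, 0.71 and 0.67 on the log2 scale, with adjusted p of 6.04e-06, 0.0104 and 0.00118.

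Igfbp4, a binding protein that inhibits IGF action until it is cut, changed least among the genes that rose. It stood at 472.6, 505.8, 491.8 and 486.7 CPM in wild-type embryos 1 to 4 and at 506.2 CPM (lowest), 539.6 CPM (median) and 599.6 CPM (highest) in the mutant-labelled embryos. The groups touch: the lowest mutant-labelled embryo lay only just above wild-type embryo 2. The means were 489.2 ± 13.7 CPM (SD, n = 4) and 548.8 ± 33.5 CPM (SD, n = 8), a log2 fold change of 0.17 (SE 0.05, 95% interval 0.06 to 0.27, adjusted p = 0.0102). Without embryos 2 and 6 and wild-type embryo 1 it was 0.11 (adjusted p = 0.0527), and with the endothelial score as a covariate 0.05 (adjusted p = 0.669). After removal of GC and length trends it was 0.08 (adjusted p = 0.0867).

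Igfbp7 was close to the limit of detection, with 4 to 18 counts per library. It stood at 0.35, 0.20, 0.63 and 0.35 CPM in wild-type embryos 1 to 4 and at 0.29 CPM (lowest), 0.44 CPM (median) and 1.06 CPM (highest) in the mutant-labelled embryos. The groups overlapped, and the highest value came from embryo 6, the embryo with trophoblast markers. The log2 fold change of 0.39 (SE 0.39, adjusted p = 0.412) had a 95% interval from -0.43 to 1.21, so a difference of the size seen for Igfbp2 was not detectable at this depth. Its exons share 85 bases with Polr2b on the opposite strand, and without a stated strand setting those reads cannot be told apart.

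The spread between embryos was larger in the mutant-labelled group for all 8 genes. The coefficient of variation, the SD as a percentage of the mean, was 6.83% in wild type and 18.6% in mutant-labelled embryos for Igf1, 4.62% and 8.03% for Igf1r, and 1.87% and 10.6% for Insr. It was 4.38% and 8.21% for Igfbp3, 2.81% and 6.10% for Igfbp4 and 7.63% and 15.5% for Igfbp5. The smallest gaps were those of Igfbp2 (10.4% and 12.3%) and Igfbp7 (47.1% and 47.6%). These differences in spread were not tested and were not set against those of all genes. The mutant-labelled group is larger and holds embryos 2 and 6, which stood apart on tissue markers, and Igfbp7 had only 4 to 18 counts per library. Across embryos the 8 genes did not share 1 order. Embryo 3 was highest for Insr and Igfbp2 yet within the wild-type range for Igf1, embryo 8 was lowest for Igfbp2 and Igfbp3 yet highest for Igfbp5, and embryo 6 was lowest for Insr, Igf1r and Igfbp5.

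**Figure D3:**
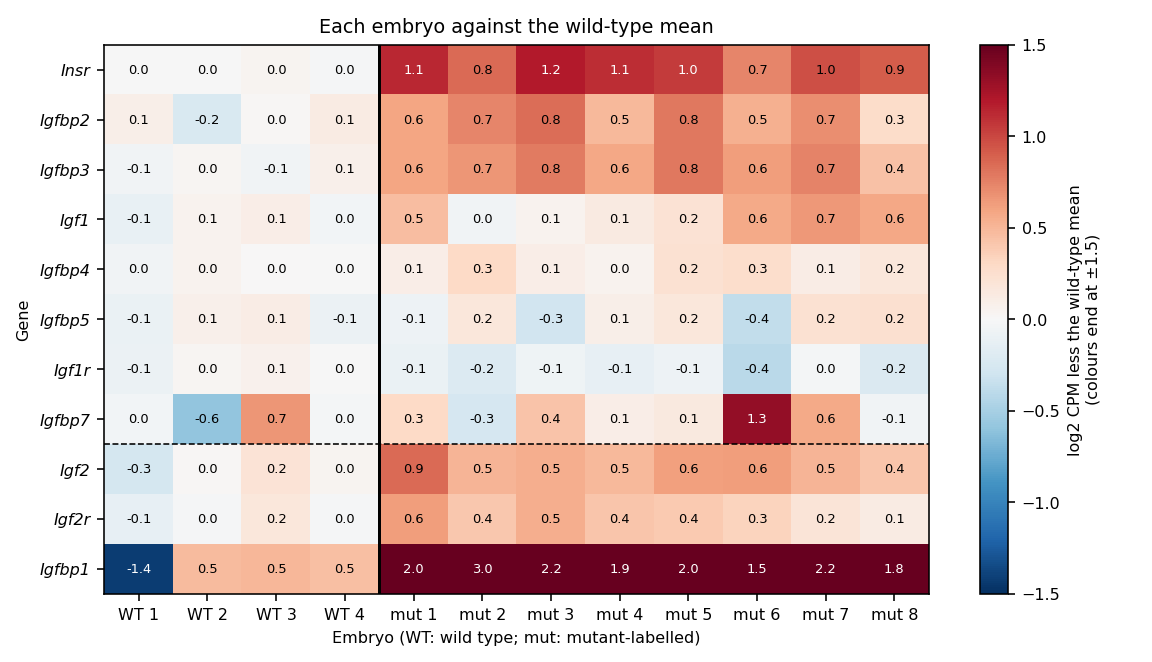
Log2 CPM (prior count of 2) of each gene in each embryo less the wild-type mean, for the 8 genes (above the dashed line) and for Igf2, Igf2r and Igfbp1. Columns are the 4 wild-type (WT) and 8 mutant-labelled (mut) embryos: Insr, Igfbp2, Igfbp3 and, by less, Igfbp4 are positive in all 8 mutant-labelled embryos, Igf1r is negative in all 8, and Igf1, Igfbp5 and Igfbp7 have both signs.

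Levels can be compared between genes only per transcript length. In CPM per kb of the longest annotated transcript (GENCODE M21), Igfbp2 was the highest of the 8 in wild type at 184.7 ± 19.2 (SD, n = 4), followed by Igfbp4 at 127.7 ± 3.58 and Igfbp5 at 96.0 ± 7.33. A gap followed, to Igfbp3 at 17.3 ± 0.76 and Igf1r at 14.2 ± 0.657. Insr stood at 3.22 ± 0.060, Igf1 at 1.67 ± 0.114 and Igfbp7 at 0.32 ± 0.150. The order was the same in the mutant-labelled embryos, where Igfbp2 reached 284.0 ± 34.9 (SD, n = 8), Igfbp3 27.4 ± 2.25 and Insr 6.45 ± 0.683, while Igf1r stood at 12.8 ± 1.03. Within each group the ranges over embryos of neighbours in this order did not overlap. These ranges do not cover error in the length, since the longest transcript need not be the one expressed in these embryos. The ligand Igf2, at 467.8 ± 60.7 CPM per kb in wild type, lay above all of them, although its exons share 3596 bases with an overlapping gene model on the same strand.

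**Figure D4:**
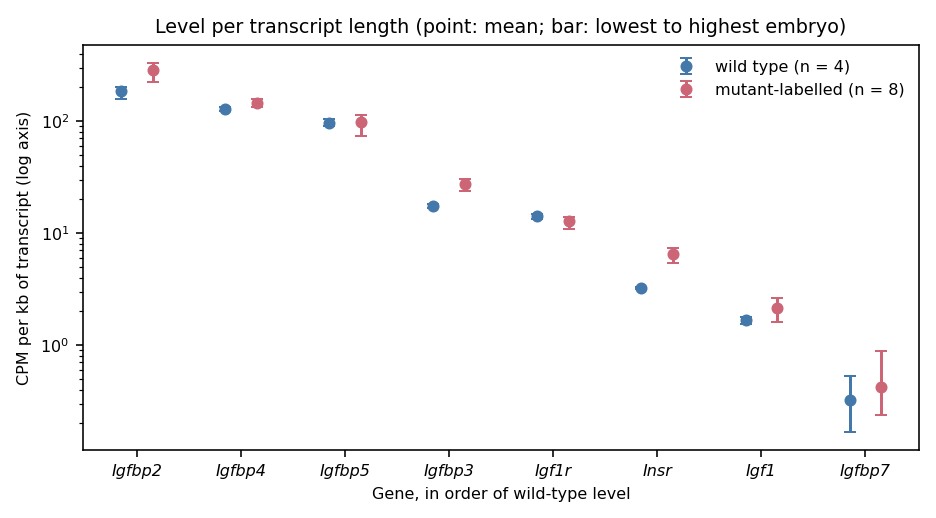
CPM per kb of the longest transcript (log axis) in wild-type (n = 4) and mutant-labelled (n = 8) embryos, with genes in order of their wild-type level. Points are means and bars run from the lowest to the highest embryo, for the 8 genes. Igfbp2 is at the top (184.7 in wild type), and Igf1r lies above Insr in both groups. That gap is smaller in the mutant-labelled embryos (12.8 against 6.45) than in wild type (14.2 against 3.22).

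Of 60 other genes listed for the IGF pathway, 58 were tested, and 21 rose, 6 fell and 31 did not pass. The 46.55% that passed is near the 51.5% of all genes tested, and their median log2 fold change was 0.05. Once the endothelial score was a covariate 17 of them passed, all higher, so each of the 6 falls described here lost its call. Calls were also lost over all genes tested, where 3092 passed with that covariate, 61.8% of them higher, and 7423 without it. Ins1 had 0 counts in every library, and Ins2 had 0 to 8 counts and was not tested. These are the insulin genes, whose ligand also acts through INSR.

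Among the other ligand and receptor genes, Igf2 and Igf2r rose and Insrr did not pass. Igf2, the main fetal growth ligand, stood at 1832, 2226, 2529 and 2249 CPM in wild-type embryos 1 to 4 and at 2916 CPM or more in every mutant-labelled embryo, up to 3958 CPM in embryo 1. The groups did not overlap, and the log2 fold change was 0.57 (SE 0.08, adjusted p = 8.27e-05). Igf2r, the receptor that takes IGF2 up for degradation, rose from 585.5 ± 50.4 CPM (SD, n = 4) to 763.9 ± 88.2 CPM (SD, n = 8), a log2 change of 0.38 (SE 0.08, adjusted p = 0.00167). Embryo 8, at 636.2 CPM, lay within the wild-type range. With the endothelial score as a covariate the log2 fold change of Igf2r was 0.42, no smaller than without it, and the adjusted p was 0.0587. Insrr, the insulin receptor-related receptor, was scarce at under 1 CPM on average, with a log2 fold change of -0.30 (adjusted p = 0.440).

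Of 4 further binding-protein genes 1 rose. Igfbp1, a binding protein induced by fasting and hypoxia in the liver, stood at 0.06, 0.51, 0.52 and 0.50 CPM in wild-type embryos 1 to 4 and at 1.18 to 3.47 CPM in the mutant-labelled embryos. The groups did not overlap, although the wild-type libraries had only 1 to 10 counts. Its log2 fold change of 2.20 (SE 0.39, adjusted p = 0.000236) was 1.73 without wild-type embryo 1 and mutant-labelled embryos 2 and 6. Igfbp6 (0.00 on the log2 scale), Igfbpl1 (0.07) and Igfals (-0.64, adjusted p = 0.0992) did not pass. Igfals passed in 4 of 26 alternatives: limma-voom, quality weights, without mutant-labelled embryo 4 and with the yolk sac score. Igfals encodes the acid-labile subunit of the serum IGF complex.

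Of 6 genes for binding-protein proteases and their inhibitors, 2 rose and 1 fell. Adam12, a metalloprotease that can cut IGFBP3 and IGFBP5, rose from 21.6 ± 3.23 CPM (SD, n = 4) to 40.2 ± 5.96 CPM (SD, n = 8) without overlap, a log2 change of 0.89 (SE 0.12, adjusted p = 2.56e-05). Its count is uncertain because 5 other genes have near-identical stretches. Stc2, a stanniocalcin that inhibits pappalysins, rose by 0.79 (SE 0.20, adjusted p = 0.00578), with some overlap. Pappa2, a pappalysin that cuts IGFBP5 and IGFBP3, fell by 0.94 (SE 0.28, adjusted p = 0.0105) from 1.54 ± 0.454 CPM (SD, n = 4). It was at -0.74 (adjusted p = 0.0618) without wild-type embryo 2 and at -0.13 (adjusted p = 0.874) with the endothelial score as a covariate. Pappa, which cuts IGFBP4, was at 0.02 (adjusted p = 0.922), and at 0.63 (adjusted p = 0.0370) with that covariate. Stc1 was at 0.67 (adjusted p = 0.0751), with a range of 0.34 to 1.23 over the alternatives, and passed in 4 of 27 of them: DESeq2, quality weights and without mutant-labelled embryo 7 or 8. Htra1, a serine protease, was at 0.91 (adjusted p = 0.169), and embryo 6 stood at 17.7 CPM, where the remaining mutant-labelled embryos had 2.96 to 3.84 CPM. Without embryo 6 its log2 fold change was 0.31 (adjusted p = 0.0668).

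**Figure D5:**
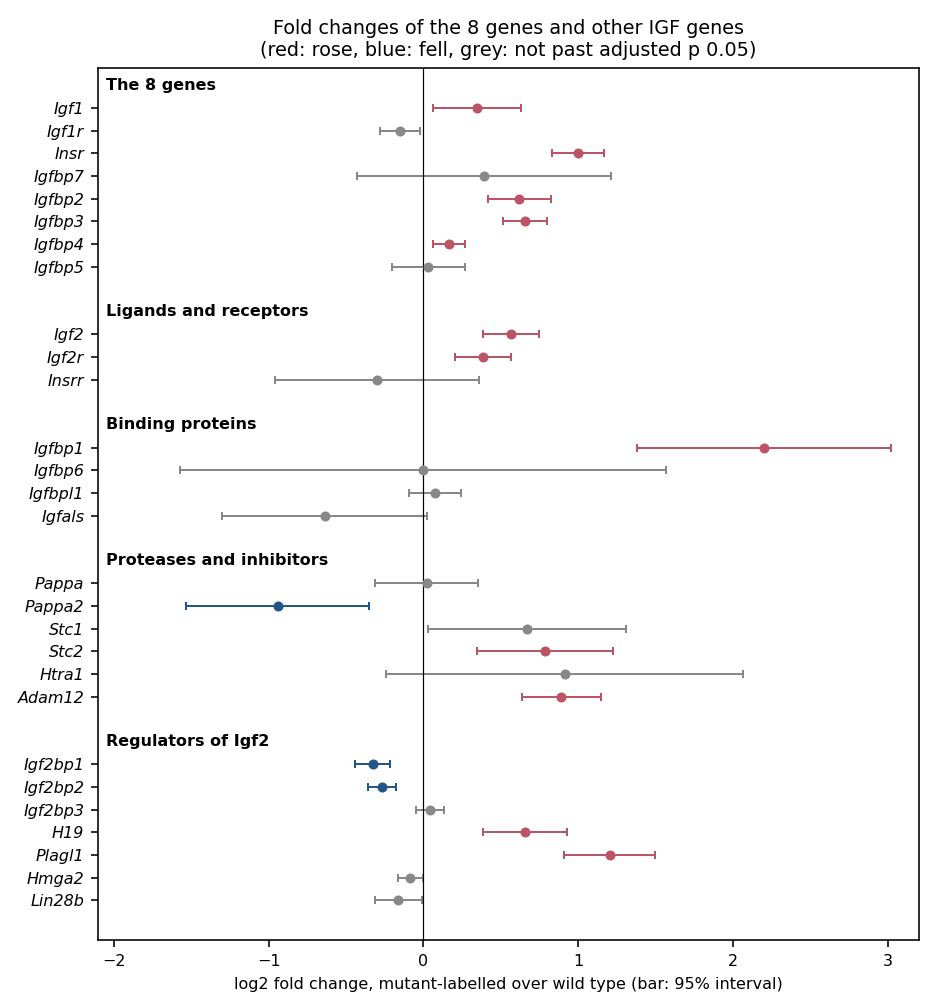
Log2 fold changes (mutant-labelled over wild type, x axis) with their 95% intervals for the 8 genes and for the tested genes of 4 further lists. Red marks genes that rose, blue those that fell and grey those not past an adjusted p of 0.05: Insr is at 1.001, Igfbp1 at 2.20 with a wide interval, and Igfbp6 and Igfbp7 have intervals across 0.

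Downstream of the receptors, 8 of 22 adaptor and kinase genes rose and 1 fell. The lowest p among those that rose belonged to Ptpn1, the phosphatase that switches off INSR, at 0.59 on the log2 scale (SE 0.04, adjusted p = 3.41e-08), and next came Pdpk1 (0.50), Akt2 (0.36) and Akt1 (0.30), kinases of the PI3-kinase branch. Sos1, the Ras exchange factor, fell by 0.46 (SE 0.08, adjusted p = 0.000321). With the endothelial score as a covariate Sos1 was at -0.26 (adjusted p = 0.187) and Akt1 at 0.24 (adjusted p = 0.0756). Pik3cb (-0.23), Pik3r1 (-0.18) and Grb2 (-0.08) did not pass. Of 16 growth effectors 6 rose and 2 fell. Ddit4, a stress-induced inhibitor of mTOR complex 1, rose by 1.73 (SE 0.34, adjusted p = 0.00139) and Sesn2, another such inhibitor, by 0.98 (SE 0.16, adjusted p = 0.000194). Eif4ebp1, the translation repressor that mTOR inactivates, rose by 0.46 and the S6 kinase gene Rps6kb1 by 0.29. Rptor, the defining subunit of mTOR complex 1, fell by 0.22 (SE 0.05, adjusted p = 0.00231), and Rps6 fell by 0.27 (adjusted p = 0.0493), a count made uncertain by 11 near-identical copies. Rps6 lost its call in 17 of 27 alternatives, with adjusted p up to 0.212. Rptor, with the same covariate, was at -0.09 (adjusted p = 0.459) and Eif4ebp1 at 0.38 (adjusted p = 0.133). Rictor (-0.13) and Tsc2 (-0.04) did not pass. Counts of Akt2, Grb2, Pik3cb and Tsc2 are also uncertain, with near-identical stretches in 1, 1, 2 and 32 other genes.

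Of 7 regulators of Igf2 RNA or transcription, 2 rose and 2 fell. Plagl1, an imprinted zinc-finger activator of the Igf2 and H19 locus, rose from 103.3 ± 24.5 CPM (SD, n = 4) to 238.0 ± 27.5 CPM (SD, n = 8), a log2 change of 1.20 (SE 0.14, adjusted p = 1.07e-05) and no overlap. H19, the maternally expressed RNA beside Igf2, rose by 0.66 (SE 0.12, adjusted p = 0.000806), and was at 0.31 (adjusted p = 0.214) with the endothelial score as a covariate. Igf2bp1 fell by 0.33 (SE 0.05, adjusted p = 0.000127) and Igf2bp2 by 0.27 (SE 0.04, adjusted p = 9.47e-05). Both encode proteins that bind Igf2 RNA. With the same covariate they were at -0.27 (adjusted p = 0.0519) and -0.17 (adjusted p = 0.0901). The related Igf2bp3 (0.04), the chromatin protein gene Hmga2 (-0.08) and Lin28b (-0.16), which blocks let-7 maturation, did not pass.

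For each of the 8 genes the genes with the most similar pattern over the 12 embryos, up to 3, were named by the root mean square (RMS) difference of log2 CPM profiles, each less its wild-type mean, among 10414 genes with a mean of at least 5 CPM. This is a description with no test, and the profiles share the same libraries. Nearest to Insr was Bace1, an aspartyl protease gene, at an RMS of 0.084, then Zfp948 (0.095). Nearest to Igfbp2 were Prelid2 (0.069), Reep1 (0.088) and then Igfbp3 (0.110), the only 1 of the 8 genes that another of them drew. Nearest to Igfbp3 were Cln6 (0.058), the laminin gene Lamb2 (0.068) and Adck2 (0.072). The genes nearest to Igf1r were Tet3 (0.040), Pcnx (0.047) and Smad4 (0.052), of which Smad4, the shared mediator of TGF-beta signals, fell by 0.16 (adjusted p = 0.00718). Igf1 was nearest to Tns1 (0.121), Pon2 (0.122) and Calcrl (0.126), Igfbp4 to Atp5b (0.037), Cops6 (0.041) and Cacnb3 (0.048), and Igfbp5 to Srl (0.095), Dcaf7 (0.104) and Glis2 (0.115). Igfbp7 had no close match, with Gadd45g at 0.233, Bcl6b at 0.296 and Dusp2 at 0.303.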

How the data were processed

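Per the labels' protocols, poly-A RNA of 12 whole embryos, each kept single, was sequenced as 50-base read pairs. The table holds the raw read counts by symbol that the authors deposited. The submitters' processing notes name STAR, featureCounts, FastQC, DESeq2 and the build mm9. The sources used here do not give versions, the annotation, the strand setting or how multi-mapping reads were handled. Total counts ranged from 16802367 to 21346245 per embryo, and counting error is smallest for the abundant genes.

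Groups follow the genotype in the labels. The genotype test was the robust quasi-likelihood F test of edgeR 4.0.16 (R 4.3.3), with TMM scaling, a filterByExpr filter and no covariate, with Benjamini-Hochberg adjustment over the 14412 genes tested and a threshold of 0.05. An SE is the log2 fold change over the root of F, and CPM are TMM-scaled. The 2 ratios added 0.5 counts to each gene. The test was checked on simulated counts. The series text says single embryos, and p-values thus rest on the spread from embryo to embryo, with shared litters unknown. The lowest chi-square per degree of freedom between libraries of a group was 3.89, so none looked like a repeat.

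The genes and lists were chosen with earlier results of these data known. Genes named are the 8, Tgif1, Tgif2, all genes of pathway lists under 10 genes, in longer lists the 4 with the lowest p in each direction, and the 3 nearest in pattern, of which 1 is not reported here. Marker genes named for embryo 6 were chosen after their values were seen. Near-identical copies are GENCODE M21 transcripts of other genes with at least 200 bases at 95% identity by BLAST 2.17.0, and none of the 8 genes had 1. Lengths and overlaps came from the same annotation, whose build differs from mm9. Of 23284 symbols 20683 matched the RefSeq gene table (GRCm38.p6) directly and 2354 through a synonym. Promoters are RefSeq's, matched by symbol for Igf1, Igf1r, Igfbp2, Igfbp3, Igfbp4, Igfbp5 and Igfbp7. Alternatives were upper-quartile or RLE scaling, limma-voom 3.58.1 with or without quality weights, DESeq2 1.42.0, no count filter or a stricter one, no robust estimation, each embryo left out, wild-type embryo 1 and mutant-labelled embryo 2 left out, a covariate score of red cell, yolk sac or endothelial genes, omission of the 50 most abundant genes, GC and length trends removed and, for the ratios, 5 counts added. Leaving out embryo 6 as well was added after seeing the data.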

Additional observations from a re-analysis of the deposited data

Results flagged for a closer look

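In groups of 4 or 8 embryos, the distance of the highest or lowest embryo from the rest was set against Dixon's 95% limit. It was larger in 12 of 98 groups checked (12.24%), where chance gives about 1 in 20. That rate need not hold for genes with counts near 0, such as Ins2. The limit also takes no account of counting error, and Insr had 516 to 597 counts in the wild-type libraries. Among the 8 genes this marked Insr in wild-type embryo 3 (30.98 CPM, others 29.76 to 29.93 CPM) and Igfbp7 in mutant-labelled embryo 6 (1.06 CPM, others 0.29 to 0.58 CPM). The log2 ratio of Igf1r to Insr was low in wild-type embryo 1, at 2.35 against 2.44 to 2.46. Mutant-labelled embryo 6 was also apart for Htra1 (17.7 CPM, others 2.96 to 3.84 CPM) and Ins2 (0.47 CPM, others 0 to 0.16 CPM). It is the embryo with trophoblast markers, whose part in these values was not tested. Igf2 was high in mutant-labelled embryo 1 (3958 CPM, others 2916 to 3381 CPM). Igfbp1 was high in mutant-labelled embryo 2 (3.47 CPM, others 1.18 to 1.97 CPM) and low in wild-type embryo 1 (0.0579 CPM, others 0.50 to 0.52 CPM). Among wild-type embryos, Ins2 was seen only in embryo 3 (0.0576 CPM), and that single count, against 0 in the others, set the flag. Igfbp6 was high in wild-type embryo 4 (0.95 CPM, others 0.51 to 0.58 CPM). Pik3r1 was high in wild-type embryo 1 (46.5 CPM, others 40.1 to 40.7 CPM) and Igf2bp2 in wild-type embryo 2 (450.2 CPM, others 421.4 to 426.2 CPM).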

How the results depend on the processing

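Insr (0.97 to 1.23 on the log2 scale), Igfbp2 (0.46 to 0.71) and Igfbp3 (0.62 to 0.68) kept their direction and passed the threshold in all 27 alternatives, and both ratios kept theirs in every alternative run. With the endothelial score as a covariate, which does not overlap between groups, 3092 genes passed (61.8% of them higher, against 51.7% without it), as did 3 of the 8 genes and 17 pathway genes (17 higher, 0 lower, against 21 and 6). Igf1 was then at -0.027, Igfbp4 at 0.053 and Igfbp7 at -0.84, and Htra1 (-1.16), Rictor (0.13), Tsc2 (0.036), Lin28b (0.065) and Igfbp6 (-0.66) also turned sign without a call. Igf1 missed the threshold with limma-voom (0.32), with quality weights (0.23) and without wild-type embryo 1 and mutant-labelled embryos 2 and 6 (0.33). Igf1r passed it with RLE scaling (-0.15), DESeq2 (-0.15), quality weights (-0.14), the 50 most abundant genes left out (-0.15) and those 3 embryos left out (-0.13). Igfbp4 missed it without those 3 embryos (0.11) and with GC and length trends removed (0.084). Igfbp5, never called, was at -0.0087 with quality weights and -0.016 without wild-type embryo 1 and mutant-labelled embryo 2. Igfbp6, never called, was at -0.0040 with RLE, -0.047 with voom, -0.066 with quality weights, -0.12 and -0.33 without the 2 and the 3 embryos, -0.27 with the red cell score and -0.17 with GC and length removed. With GC and length removed Igfbpl1 was at -0.010 and Rictor at 0.03, and Pappa was at -0.0022 with voom and -0.011 with the red cell score. Leaving out 1 embryo gave 6485 to 7524 genes, 4 to 6 of the 8 genes and 24 to 31 pathway genes. The log2 fold changes then ran from 0.30 to 0.40 for Igf1, -0.18 to -0.12 for Igf1r (adjusted p from 0.027 to 0.135), 0.15 to 0.18 for Igfbp4, -0.0019 to 0.083 for Igfbp5, -0.17 to 0.26 for Igfbp6 and -0.025 to 0.11 for Pappa. Igfbp7 was not tested under the strict filter or without mutant-labelled embryo 3, 6 or 7. Of 965 values of 36 other named genes 891 kept direction and call, 27 lost the call, 21 gained it and 26 turned sign. The causes were not tested. No paired analysis was possible because the sources used here give no litters or batches by which embryos could be paired. Depth limits Igfbp7, Igfbp1, Igfbp6 and Insrr, which have few counts.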
